A study of Mus musculus with 2 samples.

Results

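Arg1-low C1q macrophages were a small class of macrophages in subcutaneous ovarian tumors, and 118 of the 4403 cells kept from the series belonged to it. Members were chosen by their UMIs (unique molecular identifiers, each counting 1 captured transcript) of the genes below. A cell was a member when it held at least 3 UMIs of C1qa, C1qb and C1qc together, at least 1 UMI of Csf1r or Ptprc, fewer than 2 UMIs of the T cell genes Cd3d, Cd3e, Cd3g and Trac, fewer than 2 UMIs of the resident macrophage genes Folr2, Lyve1 and Cd163, and fewer than 3 UMIs of Arg1. Cells had at least 200 genes, at least 500 UMIs and at most 10% mitochondrial UMIs, with no upper limit, and a barcode that did not occur in both libraries. The levels of the genes named in this rule therefore describe how the cells were chosen and are not results.

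The tumors grew from SO cells, an ovarian cancer line of C57BL/6 origin that lacks p53 and carries H-ras and myc, placed under the skin of female C57BL/6 mice of 6 to 8 weeks. The WT mice carried normal Fbn1, and the TSK (tight skin) mice carried a duplication within 1 copy of Fbn1, the fibrillin-1 gene, in every cell of the body. The implanted SO cells were the same line in both genotypes. Tumors of several mice of a genotype were pooled, dissociated with enzymes, cleared of red and dead cells and loaded without selecting any cell type, which gave 1 library per genotype. With 1 library per genotype there was no test between WT and TSK, and all intervals below are 95% intervals that cover counting error only. WT and TSK differences cannot be told apart from differences between the 2 libraries.

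Macrophages in tumors arise largely from blood monocytes, which enter the tissue through the receptor Ccr2 and then lose monocyte genes as they gain macrophage genes such as C1qa, C1qb and C1qc, the subunits of the first complement component. They present peptides to CD4 T cells on MHC class II molecules, whose genes are switched on by the coactivator Ciita and strengthened by interferon-gamma. Arg1 encodes arginase, which breaks down arginine and is a common marker of T cell-suppressing tumor macrophages. The cells described here hold complement genes and little Arg1.

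The WT library held 63 members among 1442 cells and the TSK library 55 among 2961. The SO tumors of both genotypes were sequenced to 21225411 UMIs in 2332 barcodes for WT and 48296765 UMIs in 4436 barcodes for TSK. Members had a median of 9189 UMIs and 2509 genes in WT and of 5366 UMIs and 1925 genes in TSK, and 30 WT members but 6 TSK members held over 10000 UMIs. Together they gave 633964 UMIs in WT and 349773 in TSK. Of the barcodes, 263 occurred in both libraries, and none of those cells met the rest of the rule for members. The depth difference went in the same direction as several of the differences given below, and its part in them was not tested beyond the values given without the deepest cells.

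Every member held a UMI of the macrophage marker list, which the rule fixed, and single markers were missing from some members. All 12 genes of the macrophage marker list, which holds genes the rule used, were found in each library. Csf1r, the receptor for the macrophage growth factor, was found in 55 of 63 WT members and in 43 of 55 TSK members, although the rule allowed Ptprc in its place. Adgre1, which encodes the F4/80 antigen, was found in 49 WT and 33 TSK members. Cd74, the chaperone of MHC class II, was found in 63 of 63 WT members but in 47 of 55 TSK members. The 7 NK cell markers were at 0 in both libraries, where a count of 0 allows up to 3 UMIs, and the T cell list gave 3 UMIs in WT and 4 in TSK. The plasmacytoid dendritic list gave 239 UMIs in WT and 196 in TSK, with its defining gene Siglech at 0 in both. The neutrophil list gave 44 and 24 UMIs, the B cell list 48 and 20, the fibroblast list 43 and 19, and the endothelial list 78 and 38, in WT and TSK. In all, 29 of 63 WT and 21 of 55 TSK members held 3 or more UMIs of other lineages, and their part in the results was not tested beyond the values given without them.

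Members made up 4.37% of the WT cells (exact binomial interval 3.37 to 5.56%) and 1.86% of the TSK cells (1.40 to 2.41%). The log2 ratio of these shares, TSK over WT, was −1.23 (−1.78 to −0.69). It was not the same for neighbouring macrophages, since Arg1-high C1q macrophages, which met the same rule but for 3 or more Arg1 UMIs, gave −0.32 (−0.73 to 0.09) and macrophages with 2 or more UMIs of Folr2, Lyve1 and Cd163 gave 0.77 (0.22 to 1.35). The share of all cells depended on what else was in the library. Over the cells with a UMI of Ptprc, the gene of the leukocyte antigen CD45, the ratio was −0.29 (−0.88 to 0.28), and with cells of over 10000 UMIs left out it was −0.32 (−0.98 to 0.37), so that neither of these intervals left out 0.

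Within the C1q macrophages, members were 43.8% of 144 cells in WT (35.5 to 52.3%) and 29.3% of 188 cells in TSK (22.9 to 36.3%), a log2 ratio of −0.58 (−1.13 to −0.04). The Arg1 limit separated the libraries unevenly. In WT, 52 members had no Arg1 UMI, 7 had 1 and 4 had 2, while 1 cell just outside had 3 and 1 had 4. In TSK, 41 members had none, 9 had 1 and 5 had 2, while 11 cells just outside had 3, 3 had 4 and 6 had 5. The WT library thus had few cells just above the limit and the TSK library had more. The 11 TSK cells with 3 Arg1 UMIs had a median depth of 2080 UMIs. The Arg1-high cells had a median of 67 Arg1 UMIs in WT and 25 in TSK, at a median depth of 15513 and 8468 UMIs. These raw counts were thus taken at unlike depth. When every cell was thinned to 2000 UMIs, the expected share below the limit was 50.9% in WT and 43.1% in TSK. Cells under 2000 UMIs drop out of every thinned value, here 4 WT and 12 TSK cells, and 4 WT and 6 TSK cells where members alone were thinned.

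**Figure D1:**
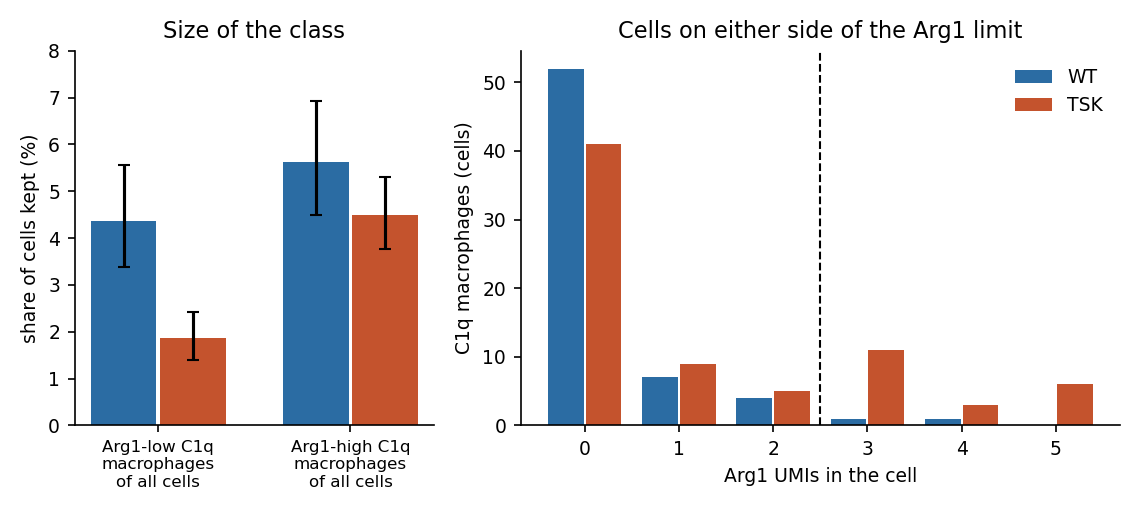
Left, share of all kept cells (%) that were Arg1-low or Arg1-high C1q macrophages in the WT and TSK libraries, with exact binomial 95% intervals. Right, number of C1q macrophages with 0 to 5 Arg1 UMIs, with the limit of the class as a dashed line, where WT has 2 cells from 3 to 5 UMIs and TSK has 20.

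Antigen presentation genes differed between the libraries, and the sequence before the start of 2 class II genes is shown because these genes moved together. The bases before the start of H2-Aa (RefSeq, GRCm38.p6, chr17:34287824-34288073, minus strand, printed 5′ to 3′ along the gene) and of H2-Eb1 (chr17:34305617-34305866, plus strand) are shown for the class II genes. In both, the Y box letters TGATTGG are in capitals, and in H2-Eb1 so are the X box letters AACTGATGATG, which were read from this gene. In H2-Aa the Y box lay 50 to 44 bases before the start, and in H2-Eb1 61 to 55 bases before it.
H2-Aa: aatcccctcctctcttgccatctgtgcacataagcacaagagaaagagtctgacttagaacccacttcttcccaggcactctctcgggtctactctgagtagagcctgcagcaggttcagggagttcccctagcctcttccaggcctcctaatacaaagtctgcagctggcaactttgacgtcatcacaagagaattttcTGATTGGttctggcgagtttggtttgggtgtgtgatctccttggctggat
H2-Eb1: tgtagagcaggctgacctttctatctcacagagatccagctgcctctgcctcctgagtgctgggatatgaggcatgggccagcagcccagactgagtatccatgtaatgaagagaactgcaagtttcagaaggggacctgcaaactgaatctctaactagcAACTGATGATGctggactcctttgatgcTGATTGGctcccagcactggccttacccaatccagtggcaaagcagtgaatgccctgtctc

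Searched on both strands of the 250 bases before each start, TGATTGG was in 7.23% of 32851 RefSeq promoters and in 6 of the 10 class II list genes with a promoter in the table. AACTGATGATG was in 0.0304% of all promoters and in 2 of these 10, H2-Eb1 and H2-DMb1. The match in H2-Eb1 was fixed in advance, since the letters were read from that gene. A match describes the letters and is not evidence of a bound factor. The class II genes lie close together on chromosome 17 (GENCODE M21, GRCm38), with H2-Ab1 at 34257689 to 34269419, H2-Aa at 34282744 to 34287823 and H2-Eb1 at 34305867 to 34316674.

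MHC class II genes were lower in TSK members. Levels are UMIs of a gene per 1000000 UMIs of the members (CPM), and a gene was compared when it had at least 50 UMIs over both libraries. Cd74 was at 10152 CPM in WT and 4760 CPM in TSK, a log2 ratio of −1.09 (−1.17 to −1.01). Of the chains that hold the peptide, H2-Ab1 was at 3866 CPM in WT and 2116 CPM in TSK (log2 ratio −0.87, −0.99 to −0.75). H2-Aa gave −0.81 (−0.92 to −0.71) and H2-Eb1 −0.81 (−0.93 to −0.69). These chains thus moved together and by less than 2-fold. Ciita, the coactivator of the class II genes, had 55 UMIs in WT and 9 in TSK, a log2 ratio of −1.75 (−2.96 to −0.73). Lgmn, a lysosomal protease of the same list, was higher in TSK at 0.49 (0.29 to 0.70).

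Of the 13 class II genes, 10 were compared, and 2 of them, Cd74 and Ciita, were lower in TSK by 2-fold or more and none higher. Over all 3092 genes compared, 3.53% were lower by 2-fold or more and 8.15% higher, 252 genes higher and 109 lower, and the median log2 ratio was 0.11. The median of the 10 class II genes was −0.79, and the interval of 8 of them lay below 0, beside 361 of all 3092 genes. Scaling by the median of all gene ratios gave 191 genes higher and 146 lower, so that 56.7% of the genes past 2-fold were higher instead of 69.8%, and without the top cell of each gene 178 were higher and 142 lower (55.6%).

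The class II level of single cells was spread unevenly. The 4 genes H2-Aa, H2-Ab1, H2-Eb1 and Cd74 together took a median of 205 of every 10000 UMIs of a WT member (lowest 8.19, highest 468) and of 100.3 in a TSK member (lowest 0, highest 358). The ranges overlapped almost fully, but the first quartile was 6.68 in TSK and 144 in WT. A lower first quartile in TSK was not particular to the members. In Arg1-high C1q macrophages it was 25.1 in WT and 4.16 in TSK, with 12099 and 7715 CPM for the 4 genes. In macrophages with 2 or more UMIs of Folr2, Lyve1 and Cd163 it was 26.4 and 3.99, with 13369 and 6362 CPM. At a limit of 20 per 10000, set after the values were seen, 17 of 55 TSK members lay below it (30.9%, 19.1 to 44.8%) and 1 of 63 WT members (1.59%, 0.0402 to 8.53%). Between 10 and 40 per 10000 there were 2 WT and 3 TSK members, so few cells sat near the limit. Among the members at or above it, the 4 genes reached 23170 CPM in 62 WT cells and 20450 CPM in 38 TSK cells.

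The 17 TSK members with little class II had a median of 6260 UMIs, against 4879 in the other 38, and ran from the shallowest TSK member, at 682 UMIs, to the deepest, at 35054 UMIs. C1qa, C1qb and C1qc stood at a median of 41.5 per 10000 UMIs in them and 46.1 in the others, which the rule partly fixed. Other macrophage genes went in both directions. Lyz2, the lysozyme gene, was at 318 CPM in the 17 cells and 2172 CPM in the other 38, Adgre1 at 71.4 and 302 CPM and Csf1r at 240.1 and 373 CPM. Cd68, a lysosomal glycoprotein, went the other way with 259.5 and 174 CPM, and so did Mertk and Stab1 together with 331 and 245 CPM. Markers of the cancer cells were found in 7 of the 17 and gave 1298 CPM there against 56.2 CPM in the others, and 55.0% of these UMIs came from 1 cell. Of the 17 cells, 14 held a UMI of Mertk or Stab1, 13 of Lyz2, 13 of Apoe, 11 of Cd68, 10 of Csf1r and 7 of Adgre1.

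**Figure D2:**
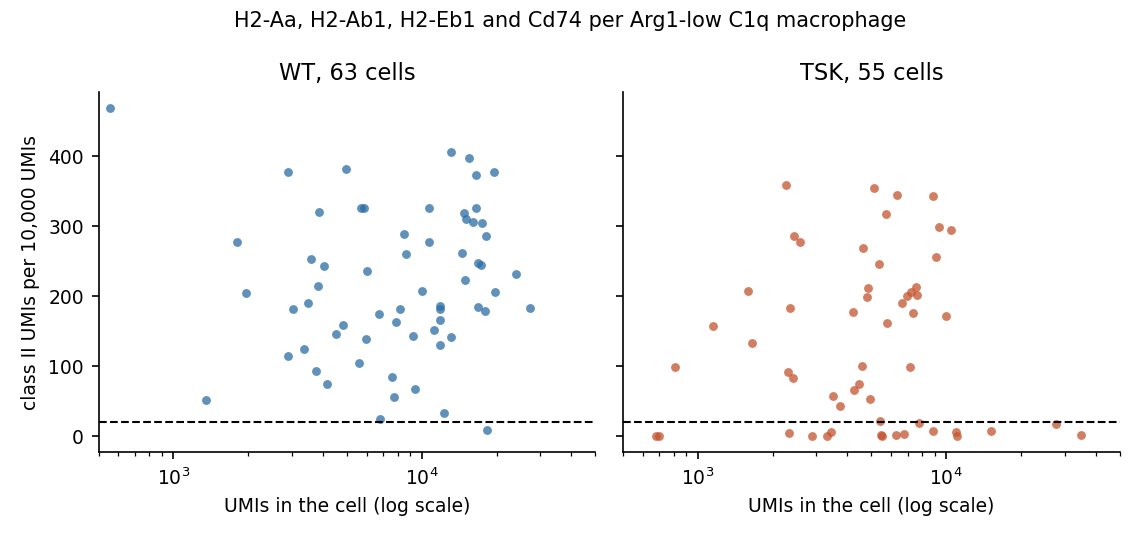
UMIs of H2-Aa, H2-Ab1, H2-Eb1 and Cd74 per 10000 UMIs of each Arg1-low C1q macrophage (vertical axis) against the UMIs of the cell (horizontal axis, log scale), in 63 WT and 55 TSK cells. The dashed line is at 20 per 10000, with 1 WT and 17 TSK cells below it.

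A UMI of the 4 class II genes was found in 63 of 63 WT members and in 49 of 55 TSK members, and after thinning to 2000 UMIs in 99.7% and 84.6%. In cells with cancer cell markers and no UMI of Ptprc or Csf1r, which should lack these genes, it was found in 34.4% of 96 WT cells with a median of 31655 UMIs and in 23.9% of 1071 TSK cells with a median of 27697, and after thinning in 7.80% and 3.69%. The members were far above that level. The class II difference was smaller among cells of at most 10000 UMIs, where the log2 ratio of Cd74 was −0.38, of H2-Aa −0.21, of H2-Ab1 −0.08 and of H2-Eb1 −0.01. In that range the 4 genes were at 18180 CPM in 33 WT members and 15553 CPM in 49 TSK members, and above it at 24096 CPM in 30 WT members and 3420 CPM in 6 TSK members. Of the class II UMIs of these 6 cells 81.5% were in 1 cell, and the 6 cells held 193 of the 211 cancer cell marker UMIs of the TSK members, whose part in the difference was not tested.

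Some class I genes, which serve the presentation of peptides to CD8 T cells, were lower in TSK. B2m, the light chain shared by all class I molecules, was at 4707 CPM in WT and 2199 CPM in TSK, a log2 ratio of −1.10 (−1.21 to −0.98). The heavy chain H2-K1 gave −0.92 (−1.08 to −0.76) and H2-D1 −0.64 (−0.84 to −0.45). Tap2, a subunit of the peptide transporter, had 70 UMIs in WT and 12 in TSK (−1.69, −2.71 to −0.79). Of the 22 genes of the list 17 were compared, 2 were lower by 2-fold or more, B2m and Tap2, beside 3.53% of all genes, none was higher, and the median was −0.46. The interval of 7 of the 17 lay below 0, beside 361 of all 3092 genes, while Tap1 gave 0.02 (−0.50 to 0.53) and Psme1 0.11 (−0.28 to 0.49).

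Most interferon-gamma targets had lower values in TSK, and a pair of chemokines had higher ones. The interferon-stimulated response element GAAANNGAAA is in capitals in the bases before the start of Gbp2b (RefSeq, GRCm38.p6, chr3:142594597-142594846, plus strand, 137 to 128 bases before the start, where the letters lie on the opposite strand) and of Cxcl10 (chr5:92348890-92349139, minus strand, 213 to 204 bases before the start). These genes are shown because both hold the letters and lay at opposite ends of the list.
Gbp2b: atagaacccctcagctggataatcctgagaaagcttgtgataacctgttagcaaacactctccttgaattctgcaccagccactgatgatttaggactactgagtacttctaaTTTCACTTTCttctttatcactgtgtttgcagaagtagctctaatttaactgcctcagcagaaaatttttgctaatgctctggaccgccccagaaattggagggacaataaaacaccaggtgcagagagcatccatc
Cxcl10: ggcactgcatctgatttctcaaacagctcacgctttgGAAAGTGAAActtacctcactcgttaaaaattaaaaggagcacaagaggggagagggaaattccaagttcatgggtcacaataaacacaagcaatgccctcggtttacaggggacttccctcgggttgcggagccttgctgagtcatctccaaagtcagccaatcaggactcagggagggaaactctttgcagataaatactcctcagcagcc

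The element was in 2.98% of all 32851 promoters and in 13 of the 17 interferon-gamma list genes with a promoter in the table. Gbp2b, a guanylate-binding GTPase, had 55 UMIs in 17 WT members and 2 UMIs in 2 TSK members, a log2 ratio of −3.92 (−7.00 to −2.002). Irgm1, an immunity-related GTPase, had 73 UMIs in WT and 11 in TSK (−1.87, −2.94 to −0.95), and Irf1, a transcription factor induced by interferon-gamma, was at 421 and 192 CPM (−1.14, −1.55 to −0.75). The T cell-attracting chemokines were on the other side. Cxcl10 had 55 UMIs in 15 WT members and 94 UMIs in 18 TSK members (1.63, 1.14 to 2.14), and Cxcl9 was at 344 and 643 CPM (0.90, 0.63 to 1.18).

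Of 24 genes of the list 15 were compared. Gbp2b, Irgm1, Ifi47, Gbp4, Ccl5 and Irf1 were lower in TSK by 2-fold or more, beside 3.53% of all genes, Cxcl10 was higher, beside 8.15%, and the median was −0.65 beside 0.11 over all genes compared. The interval of 10 of the 15 lay below 0 and of 2 above it, beside 361 and 676 of all 3092 genes. GTPases of the Gbp, Irg and Tgtp families had together a median of 15.03 UMIs per 10000 in WT members and 6.45 in TSK members, and 62 of 63 WT but 40 of 55 TSK members held any. Cxcl9 and Cxcl10 together were found in 34 WT and 30 TSK members, at a median of 1.11 and 1.32 per 10000, and the highest cell reached 39.3 per 10000 in WT and 104 in TSK. After thinning a UMI of either was found in 36.5% of WT and 46.1% of TSK members, and in 17.3% and 11.3% of the cancer cells, where their level was 252 and 147 CPM. Type I interferon targets had a median of 0.18 over 16 genes. Ifit2 and Rsad2 were higher by 2-fold or more, beside 8.15% of all genes, and none was lower. Of the TSK UMIs of Ifit2, 67.4% were in 1 cell.

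Several monocyte genes were lower in TSK members. Ccr2, the receptor that brings monocytes into tissue, had 322 UMIs in 51 WT members and 41 UMIs in 16 TSK members, that is 508 and 117 CPM, a log2 ratio of −2.12 (−2.62 to −1.64). Ly6c2, the surface antigen of inflammatory monocytes, was found in 26 WT and 10 TSK members (−1.41, −1.97 to −0.87), and S100a4, a calcium-binding protein, in 31 and 11 (−1.76, −2.26 to −1.28). Lyz2 was at 2276 CPM in WT and 1355 CPM in TSK (−0.75, −0.90 to −0.60), but gave −0.13 among cells of at most 10000 UMIs. Of 27 monocyte genes 19 were compared, Ccr2, S100a4, Ly6c2, Ms4a4c and Chil3 were lower by 2-fold or more, beside 3.53% of all genes, Fn1 was higher, beside 8.15%, and the median was −0.43. Without cells holding markers of other lineages Ly6c2 gave −0.53, Plac8 −0.020 and Fn1 −0.38, and Fn1 also turned to −0.60 with an Arg1 limit of 5 per 10000 UMIs, to −0.22 with no Arg1 UMI and to −0.34 without cells holding 3 cancer cell marker UMIs. Chil3 rests on few cells, since 82.4% of its 91 WT UMIs were in 1 cell.

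A UMI of Ccr2, Ly6c2 or Plac8 was found in 53 of 63 WT members (84.1%, 72.7 to 92.1%) and in 22 of 55 TSK members (interval 27.0 to 54.1%). After thinning to 2000 UMIs the shares were 68.0% and 31.3%, and in the cancer cells described above 7.19% in WT and 5.38% in TSK. In both libraries the members with such a UMI held more class II. The 4 class II genes reached 24142 CPM in the 53 WT members with a monocyte gene and 13975 CPM in the 10 without. In TSK they reached 22131 CPM in the 22 members with a monocyte gene and 5888 CPM in the 33 without. The members with a monocyte gene thus had nearly the same class II level in both libraries, and their median depth was 9378 UMIs in WT and 5540 in TSK.

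Chemokines of the CC family split by gene. Ccl6 and Ccl9, which attract myeloid cells, were lower in TSK, Ccl6 at 663 CPM in WT and 240.2 CPM in TSK (log2 ratio −1.46, −1.82 to −1.12) and Ccl9 at 461 and 177 CPM (−1.38, −1.80 to −0.98). The monocyte-attracting genes Ccl8 and Ccl12 were higher, Ccl8 at 582 and 1252 CPM (1.11, 0.90 to 1.31) and Ccl12 at 77.3 and 226 CPM (1.55, 1.01 to 2.09), while Ccl2 gave 0.47 (0.06 to 0.87). Ccl8 was found in 20 WT and 28 TSK members, and 41.5% of its WT UMIs were in 1 cell. Ccl2, Ccl7, Ccl8 and Ccl12 together had a median of 3.03 UMIs per 10000 in WT members and 12.6 in TSK members. In the macrophages with 2 or more UMIs of Folr2, Lyve1 and Cd163 the medians were 53.4 and 51.7. Of 26 chemokine and receptor genes 19 were compared, Ccl8, Ccl12 and Cxcl10 were higher by 2-fold or more, beside 8.15% of all genes, and Ccr2, Ccl6, Ccl9 and Ccl5 lower, beside 3.53%. Among cells of at most 10000 UMIs Ccl12 gave −0.04 and Ccl6 −0.69.

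**Figure D3:**
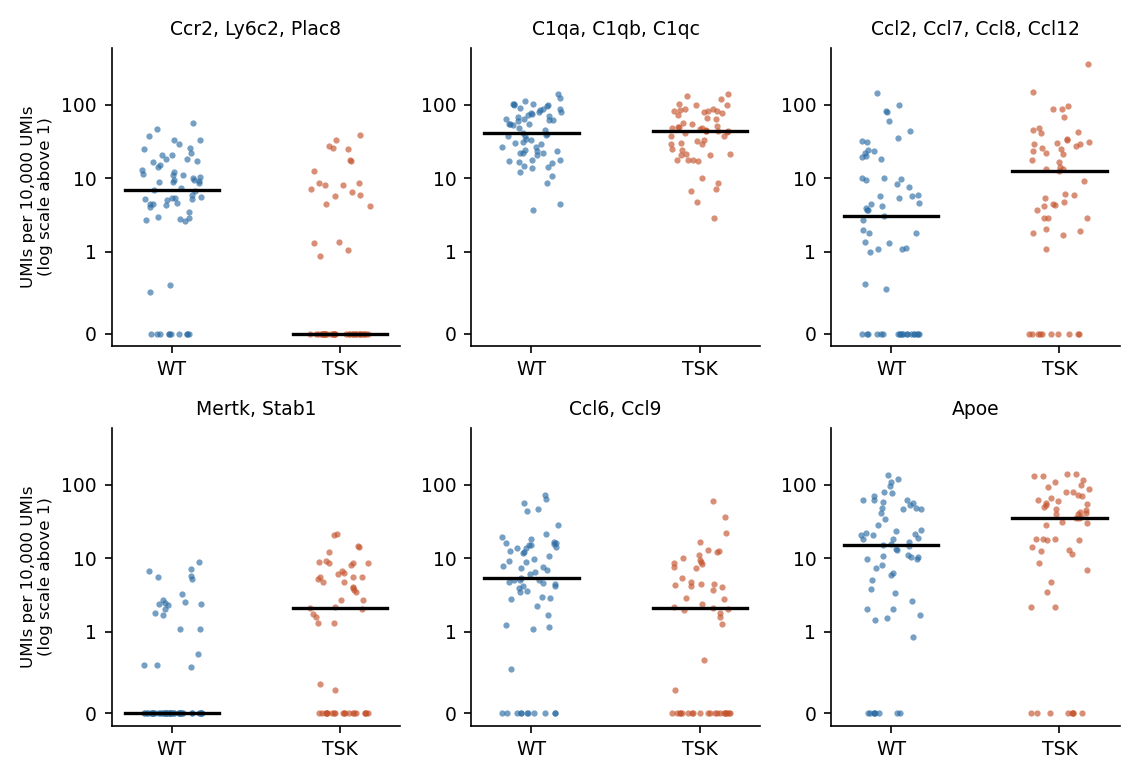
UMIs of 6 gene groups per 10000 UMIs of each Arg1-low C1q macrophage (vertical axis, log scale above 1) in WT (63 cells) and TSK (55 cells), with the median as a black line. The medians are 6.99 and 0 for Ccr2, Ly6c2 and Plac8, 41.0 and 43.9 for the C1q genes, 3.03 and 12.6 for the Ccl2, Ccl7, Ccl8 and Ccl12 group, 0 and 2.08 for Mertk and Stab1, 5.33 and 2.08 for Ccl6 and Ccl9, and 15.3 and 35.9 for Apoe.

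Some receptors for engulfing dead cells were higher in TSK members. Mertk, which binds apoptotic cells through bridging proteins, had 32 UMIs in 16 WT members and 53 UMIs in 28 TSK members (log2 ratio 1.59, 0.93 to 2.27). Stab1, a scavenger receptor, had 26 UMIs in 13 WT members and 46 in 22 TSK members (1.68, 0.96 to 2.43). A UMI of Mertk or Stab1 was found in 34.9% of WT and 63.6% of TSK members, and after thinning in 15.4% and 43.8%, beside 2.23% and 3.36% of the thinned cancer cells. Both genes together were at 91.5 CPM in WT members and 283 CPM in TSK members. In the macrophages with 2 or more UMIs of Folr2, Lyve1 and Cd163 they were at 359 and 420 CPM. Among the members, 3 in WT and 9 in TSK held 1 UMI of Folr2, Lyve1 and Cd163. Of 26 engulfment genes 17 were compared, and Mertk, Stab1, Lrp1 and Itgb5 were higher by 2-fold or more, beside 8.15% of all genes, and none lower. The median was 0.24, beside 0.11 over all genes, and Axl gave 0.30 (−0.30 to 0.88), Cd93 0.24 (−0.53 to 0.98) and Elmo1 −0.21 (−0.52 to 0.10). Apoe, an apolipoprotein that carries lipid out of macrophages, was at 2196 CPM in WT and 3334 CPM in TSK (0.60, 0.49 to 0.72). In the macrophages with 2 or more UMIs of Folr2, Lyve1 and Cd163 Apoe was at 6553 and 6278 CPM. Mrc1, the mannose receptor, differed little at −0.04 (−0.23 to 0.14).

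Ctsl, a lysosomal cathepsin protease, was at 186 CPM in WT and 495 CPM in TSK (log2 ratio 1.41, 1.06 to 1.76). Of 25 lysosomal genes 22 were compared, with Ctsl and Cd63 higher by 2-fold or more, beside 8.15% of all genes, and a median of −0.17. Mt1 and Mt2, the metal-binding metallothioneins, were higher in TSK. Mt1 was at 299.7 CPM in WT and 809 CPM in TSK (1.43, 1.16 to 1.71), and Mt2 had 18 UMIs in 11 WT members and 119 in 16 TSK members (3.58, 2.86 to 4.39). Both genes together reached 31.2 UMIs per 10000 in the highest WT member and 165 in the highest TSK member, and a UMI of either was found in 68.3% of WT and 67.3% of TSK members before thinning and in 37.4% and 51.8% after it, beside 53.8% and 74.1% of the thinned cancer cells. Both genes were also high in the cancer cells, at 1089 CPM in WT and 1717 CPM in TSK. The other macrophages went in the same direction as the members, which held 328 and 1149 CPM of both genes together. Arg1-high cells held 1301 and 3461 CPM, and macrophages with 2 or more UMIs of Folr2, Lyve1 and Cd163 held 719 and 2741 CPM.

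Genes of glycolysis and the hypoxia response were in part higher in TSK. Of 31 genes 21 were compared, the median was 0.42, the interval of 11 lay above 0, beside 676 of all 3092 genes, and that of 1, Hk3 at −0.78 (−1.61 to −0.01), below it. Mif, Eno1 and Tpi1 were higher by 2-fold or more, beside 8.15% of all genes, while Pfkp gave −0.16, Slc16a3 −0.14 and Ndrg1 −0.08. The glycolytic enzymes Pkm at 0.68 (0.41 to 0.96), Aldoa at 0.64 (0.34 to 0.94), Ldha at 0.63 (0.25 to 1.01) and Gapdh at 0.56 (0.28 to 0.84) lay close together. Mif, a cytokine that holds macrophages in place, was at 233 CPM in WT and 509 CPM in TSK (1.12, 0.80 to 1.45), and 0.46 without cells that held 3 or more cancer cell marker UMIs. Cell cycle genes gave a median of 0.81 over 8 genes, with Hist1h2ap, Cenpa, Tubb5 and Hmgb2 higher by 2-fold or more, beside 8.15% of all genes, but 84.1% of the TSK UMIs of Hist1h2ap were in 1 cell.

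**Figure D4:**
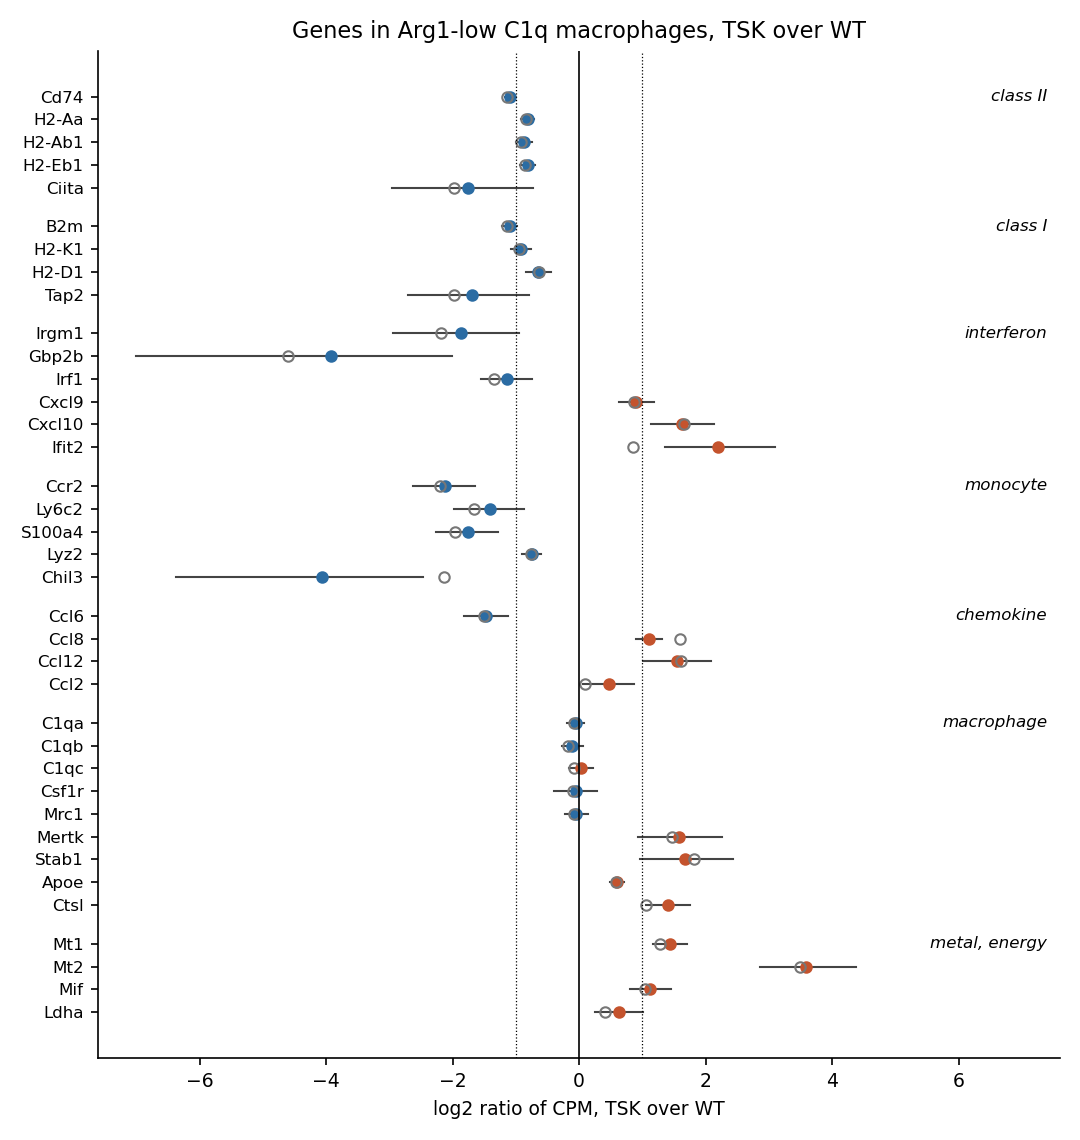
Log2 ratio of CPM, TSK over WT (horizontal axis), of named genes in Arg1-low C1q macrophages. Filled points are the values with all cells and lines their exact conditional 95% intervals, open circles leave out the cell with the most UMIs of the gene in each library, and dotted lines mark 2-fold. Class II genes lie together between −0.81 and −1.09 except Ciita at −1.75, the C1q genes lie near 0, and Chil3 and Ifit2 move most without their top cells.

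Several of the genes with the largest ratios in TSK were also found in the cancer cells. The cancer cell marker list was at 6.31 CPM in WT members and 603 CPM in TSK members, with 5 of its 8 genes at 0 in WT and 3 at 0 in TSK. In TSK, 3 members held 3 or more of these UMIs, and 52.1% of the UMIs were in 1 cell. The median depth of the 3 cells was 27773 UMIs. Spp1, the gene of osteopontin, had 25 UMIs in 17 WT members and 480 in 25 TSK members, a log2 ratio of 5.12 (4.54 to 5.76), but 82.3% of the TSK UMIs were in 1 cell, the ratio was 3.18 without the top cell of each library, and it turned to −0.75 with an Arg1 limit of 5 per 10000 UMIs. Spp1 was at 7214 CPM in the WT cancer cells and 3388 CPM in the TSK cancer cells. Airn, a noncoding RNA antisense to Igf2r, gave 4.36 (3.42 to 5.46) and Dip2c 2.68 (1.83 to 3.61), and in the TSK cancer cells they stood at 311 and 143 CPM, close to the 323 and 152 CPM of the TSK members. The part of cancer cell RNA in these ratios was not tested. Without the cells that held 3 or more cancer cell marker UMIs 154 genes were higher and 88 lower, instead of 252 and 109.

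Further genes among the 10 with the largest ratio were Igfbp4, Mark3, Ank, C1qbp, Pdpn and Alas1, with log2 ratios from 2.24 to 2.72. Mark3, Ank and Alas1 had 62.0%, 67.9% and 75.3% of their TSK UMIs in 1 cell, and Pdpn, the podoplanin gene, was found in 4 WT and 12 TSK members. Lower ones beside those named were Zfp36l2, an RNA-binding protein that destabilises messages, at −1.97 (−2.43 to −1.54), and Alpk1, Dnajb9, Cog5, Ssh2 and Gm49662, from −1.93 to −1.63. Zfp36l2 was found in 47 WT and 27 TSK members and the top cell held 10.9% of its UMIs in WT and 10.2% in TSK, so it did not rest on 1 cell.

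Pf4, Retnla and Fbn1 are genes the study names. It reported Pf4 and Retnla as higher in TSK over the macrophage cluster of these tumors, which was not limited to the members. Pf4, the platelet factor 4 chemokine, had 43 UMIs in 11 WT members and 38 UMIs in 17 TSK members, a log2 ratio of 0.68 (0.01 to 1.34) that reached 1.42 without the top cells, since 51.2% of the WT UMIs were in 1 cell. In Arg1-high C1q macrophages the ratio of Pf4 was 2.55 (2.24 to 2.88). In macrophages with 2 or more UMIs of Folr2, Lyve1 and Cd163 Pf4 was at 173 CPM in WT and 877 CPM in TSK, above the 67.8 and 109 CPM of the members. Retnla, a secreted protein of alternatively activated macrophages, was found in 7 WT and 3 TSK members and gave −1.30 (−1.72 to −0.91), but 2.91 in cells of at most 10000 UMIs. Fbn1 itself had no UMI in WT members and 4 in TSK members.

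The TSK over WT ratios of Arg1-high C1q macrophages, from the same 2 libraries, are given beside those of the members, and the difference between the classes was not tested. H2-Ab1 gave −0.87 in the members and −0.55 (−0.63 to −0.46) in Arg1-high cells, Ccr2 gave −2.12 and −0.83 (−1.08 to −0.58), and Mertk gave 1.59 and 1.40 (1.02 to 1.80). These genes had the same sign in both classes. Lyz2 gave −0.75 in the members and 1.01 (0.93 to 1.09) in Arg1-high cells. Ccl6 gave −1.46 and 0.43 (0.32 to 0.55), Adgre1 −0.58 and 0.91 (0.55 to 1.27), and Cxcl9 0.90 and −0.47 (−0.64 to −0.31), so these genes had opposite signs with intervals on either side of 0. For some of them the member value depended on deep cells. Among members of at most 10000 UMIs Adgre1 gave 0.06, Lyz2 −0.13 and Ccl6 −0.69. The lowest member value of Cxcl9 under the alternatives was 0.66. Spp1 was at 3142 CPM in WT and 3374 CPM in TSK Arg1-high cells, far above the 39.4 and 1372 CPM of the members.

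Against Arg1-high C1q macrophages the members were described within each library, with no test, since the Arg1 limit made the groups. Of 4492 genes 1.31% were higher and 2.78% lower by 2-fold or more in the members of both libraries, 59 and 125 genes. The higher genes were led by Retnla, Tmem176a, Cd83, Arhgap15, Ly6c2, Tmem176b, Ptafr and Dclre1c. Retnla rested there on 7 WT and 3 TSK members, with 57.7% and 64.1% of its UMIs in 1 cell, and was at 977 and 982 CPM in the macrophages with Folr2, Lyve1 or Cd163, above the 451 and 183 CPM of the members. Cd83, a surface protein that keeps MHC class II on the membrane, had a log2 ratio of members over Arg1-high cells of 2.13 in WT and 2.33 in TSK. Ly6c2 had 2.37 and 1.71, and Tmem176a, an intracellular cation channel of antigen-presenting cells, 2.59 and 2.26. H2-Aa gave 1.06 and 0.86 and H2-Eb1 1.08 and 0.89, so the members held more class II than Arg1-high cells of the same library.

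The genes lower in the members were led by Arg1, which the rule used, Col1a2, Ccl24, Mmp12, Col1a1, Col3a1, Postn and Slc7a2. Slc7a2, the cationic amino acid transporter that brings arginine into the cell, was at 47.3 CPM in WT members and 840 CPM in Arg1-high cells, and at 40.03 and 478 CPM in TSK, log2 ratios of −4.15 and −3.58. Mmp12, the macrophage elastase, gave −4.52 (−5.26 to −3.87) and −7.25 (−12.55 to −4.76), with 19 UMIs in WT members and 1 in TSK members, and the eosinophil-attracting Ccl24 had 10 UMIs in WT members and none in TSK members, against 1736 and 288 UMIs in the Arg1-high cells. The collagen genes among them are fibroblast markers, and 52.8% of the fibroblast marker UMIs of the WT Arg1-high cells and 44.7% of the TSK ones were in 1 cell. Glycolytic genes were also lower in the members, with Gapdh at −1.59 in WT and −1.46 in TSK and Aldoa at −1.61 and −1.22.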

How the data were processed

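Single-cell RNA of subcutaneous SO tumors was measured in 1 WT and 1 TSK library (10x 3′ chemistry). The authors deposited raw UMI counts per gene and barcode, made with Cell Ranger against mm10; the file headers name version 7.1.0 and the submitters' processing notes 7.1.1. Of 32285 gene identifiers 32158 (99.6%) were in GENCODE M21, which gave the coordinates, and promoter sequences came from RefSeq (GRCm38.p6). Cells were filtered as the report states, and doublets were not called.

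UMIs were summed over the members of each library. Shares have exact binomial, levels exact Poisson and log2 ratios exact conditional 95% intervals, none of which covers the spread between mice, and UMIs from 1 cell are not independent of each other. A gene was compared at 50 or more UMIs over both libraries and counted as higher or lower at a log2 ratio of 1 or more in size. No test between genotypes was possible. Levels were thinned to 2000 UMIs per cell where detection was compared. Named genes were the top 10 and bottom 10 by ratio (50 UMIs in all, 10 or more in each library), the leading genes of every list, 8 genes in each direction against Arg1-high cells, the markers, and Pf4, Retnla and Fbn1. Other list genes past 2-fold, and the splits by class II, monocyte genes and depth, were chosen after their values were seen. The members and lists were chosen with earlier results of these data known. The ratio computation was tested on simulated counts. Intervals were computed with scipy 1.17.1, tables with pandas 2.3.3 and numpy 2.4.6 and figures with matplotlib 3.10.9, in Python 3.11.15. Alternatives changed the cell filters, the rule's limits, the scaling, the UMI minimum and the weight of single cells. Some genes of the lists are not reported here.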

Additional observations from a re-analysis of the deposited data

Results flagged for a closer look

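The heat shock genes Hspa1a and Hspa1b, which encode inducible HSP70 chaperones, had opposite signs in the 2 classes of C1q macrophages. Hspa1a gave a log2 ratio TSK over WT of −1.25 in Arg1-low cells and 1.30 in Arg1-high cells, and Hspa1b gave −1.26 and 1.36. The difference between the classes was not tested. In the Arg1-low WT cells 55.8% of the Hspa1a UMIs and 70.4% of the Hspa1b UMIs were in 1 cell, and without the top cell of each library the ratios were −0.25 and −0.02.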

How the results depend on the processing

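No paired analysis was possible because each genotype was 1 library and no test was made; leaving out a replicate was not possible for the same reason. The log2 ratio of the share of members was −0.32 with at most 10000 UMIs per cell and −0.29 over cells with Ptprc, and moved by less than its counting interval under the other alternatives run, as did the share within C1q macrophages. Genes higher and lower by 2-fold or more numbered 111 and 41 with at most 10000 UMIs, 616 and 235 with an Arg1 limit of 5 per 10000 UMIs, 113 and 41 without cells holding markers of another lineage, 664 and 276 at 20 or more UMIs, and 56 and 21 at 200 or more; without cells holding 3 cancer cell marker UMIs, chosen after seeing the data, 154 were higher. Against Arg1-high cells, 93 and 242 genes passed at 20 UMIs and 18 and 51 at 200, and 39 were higher with the Arg1 limit per 10000. Of 4550 values of 325 genes under alternatives, 3930 moved by less than their interval, 600 moved further and 20 changed sign. With at most 10000 UMIs these were Lpl 0.77, Retnla 2.91, Cxcl1 1.08, Ccl12 −0.041, Hspa1a 0.60 and Hspa1b 0.64. Without cells of other lineages they were Chil3 0.27, Fn1 −0.38, Krt18 −0.73, Cd9 −1.73, Clec10a 0.73, Hspa1a 0.10 and Hspa1b 0.64. With the Arg1 limit per 10000 they were Spp1 −0.75 and Fn1 −0.60. Fn1 also gave −0.22 with no Arg1 UMI and −0.34 without cancer cell marker cells, Retnla 0.090 with each cell weighted alike, Cxcl1 0.86 without its top cells and Hspa1b 0.49 with no resident macrophage UMI. The causes were not tested. Ccr2, S100a4, Irgm1, Gbp2b, Zfp36l2, Ccl9, Stab1, Cxcl10, Mt2 and Airn stayed past 2-fold in the same direction under all 14 alternatives.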
